A study of Chlorocebus aethiops with 8 samples.

Results

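Core histones are the proteins around which DNA is wound, and their genes fall into 2 classes by how the mRNA ends. Replication-dependent core histone genes are transcribed mainly in S phase, and their mRNAs end in a conserved stem-loop instead of a poly(A) tail. The stem-loop binding protein SLBP binds that end and acts in its processing, translation and decay. Variants such as H2A.Z, macroH2A and H3.3 replace the canonical histones outside replication and come from ordinary polyadenylated mRNAs. Some replication-dependent genes are also known to give a share of polyadenylated mRNA, above all in cells that have left the cycle. RNA helicase A (RHA), encoded by DHX9, is a DExH-box helicase that unwinds RNA and is known to promote translation of selected mRNAs.

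The members were all probe sets whose single gene symbol begins with H2AC, H2BC, H3C or H4C followed by a number, called replication-dependent here, and those of 8 named polyadenylated variants. This gave 56 probe sets for 38 genes, out of 24956 probe sets for 14132 genes that carry 1 symbol on the array. The replication-dependent class held 47 probe sets for 33 genes and the variants 9 probe sets for 5 genes: H2AJ, H2AZ1, H2AZ2, MACROH2A1 and H3-3B. No probe set had H2AX or MACROH2A2 as its symbol, and the 3 probe sets that list H3-3A list other symbols too, so these genes are not described. A probe set listed under the older symbol HIST2H3A lay outside the rule as well. Linker histones were not included.

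The RNA was that of COS cells, derived from African green monkey kidney and carrying SV40 large T antigen, and was hybridised to 8 arrays designed for the rhesus macaque, a related species. There were 4 groups of 2 arrays: polysomal RNA after RHA siRNA, polysomal RNA after control siRNA, cytoplasmic RNA after RHA siRNA and cytoplasmic RNA after control siRNA. RHA siRNAs targeted positions 2701 to 2721 and 2784 to 2803 in the human gene's coding region, the controls were scrambled siRNAs, and both were used at 0.5 nM in 2 rounds of transfection, with a harvest 24 h after the second. In every group the first transfection included 4 h of serum-free incubation, followed by 24 h at 10% serum before the cells were split. Polysomes were taken from sucrose gradients of cytoplasmic lysates, and 25 ng of total RNA per array was amplified to biotin-labelled cDNA from a chimeric DNA/RNA primer. The labels do not say whether that primer starts at the poly(A) tail, which bears on how much of an mRNA without such a tail is read.

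Set 1 and set 2 denote the arrays of replicate 1 and replicate 2. These sets differed strongly, with 13535 of 26383 tested probe sets (51.3%) called between them by limma, so each effect was also read within a set, from a polysomal and a cytoplasmic pair of arrays (4 comparisons in all). Array medians lay between 19.3 and 20.8, and no arrays held identical values. The cytoplasmic control array of set 1 correlated least with its own set (median r across probe sets 0.970, against at least 0.976 for the other arrays). DHX9, the targeted gene, had intensities of 97.2 and 269 in polysomes after RHA siRNA against 359 and 477 after control siRNA, and 130 and 254 in cytoplasm against 244 and 342. Its values overlapped across the sets, but within them it was lower under RHA siRNA in 4 of 4 comparisons and averaged 49.5% of control over both fractions (log2 -1.01, SE 0.42; adjusted p in limma 1.00, or 0.162 with the set as a term). Of the kidney epithelium markers 6 of 11 were in the brighter 26383 of 52766 probe sets, the range that was tested, among them AQP1 and PAX8, while the defining markers UMOD, LRP2 and SLC12A1 were not. Of the mesenchymal markers 5 of 6 were in that range, including VIM. Leukocyte markers were in that range in 2 of 4 cases, CD68 and CD14, while PTPRC and ITGAM lay below it. Summed leukocyte marker intensity was 153 to 206 under RHA siRNA and 153 to 337 under control siRNA.

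Replication-dependent core histone mRNAs were higher under RHA siRNA more often than probe sets at large, whereas the variant mRNAs differed little between the siRNAs. Of the 47 replication-dependent probe sets, 13 (27.7%, from 12 genes) were higher in all 4 comparisons, against 8.05% of all 52766 probe sets, and 0 were lower in all 4, against 7.64%. Of the 47, 10 were higher on every RHA siRNA array than on any control array, against 1.04% of all probe sets. Of the 9 variant probe sets, 0 were higher and 0 lower in all 4 comparisons. The median log2 fold change over both fractions was 0.15 for the replication-dependent class (0.22 within set 1, 0.16 within set 2), 0.03 for the variants (0.08 and 0.02) and 0.02 for all probe sets with 1 symbol. A change in the number of cells that express a gene and a change in its RNA per cell cannot be told apart in such bulk samples. No member passed the test over all probe sets. Limma called 0% of 26383 probe sets in this and the other 5 contrasts (540 had an unadjusted p under 0.05 here), and with the set as a term it called 0.00758% of them, 2 probe sets, neither of which was a member.

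Both classes differ in signal, and the counts have to be read with that. All 9 variant probe sets were in the tested range, at a mean log2 intensity of 7.61 to 13.18. Of the replication-dependent probe sets 20 were in that range and 27 below its limit of 4.32 (an intensity of 19.9), and these dim ones were not tested. In the tested range 8 of 20 were higher in all 4 comparisons, against 9.81% of probe sets there, but 3 of these 8 lay under the limit in both control groups and passed it through their RHA siRNA arrays. Among the dim ones 5 of 27 were higher in all 4, against 6.28%. The members also share sequence: genes of a family code for nearly the same protein, 11 of the 47 probe sets carry an array suffix that marks shared probes, and members are thus not independent readings. Among the 36 without that suffix 9 (25%) were higher in all 4 comparisons, against 8.05% of all probe sets, with or without the suffix. Of the 36, 13 were in the tested range and 23 were dim. Without the cytoplasmic control array of set 1, 17 of 47 were higher in the 3 remaining comparisons, against 16.0% of all probe sets, and 11 (23.4%) had no overlap, against 2.14%.

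**Figure D1:**
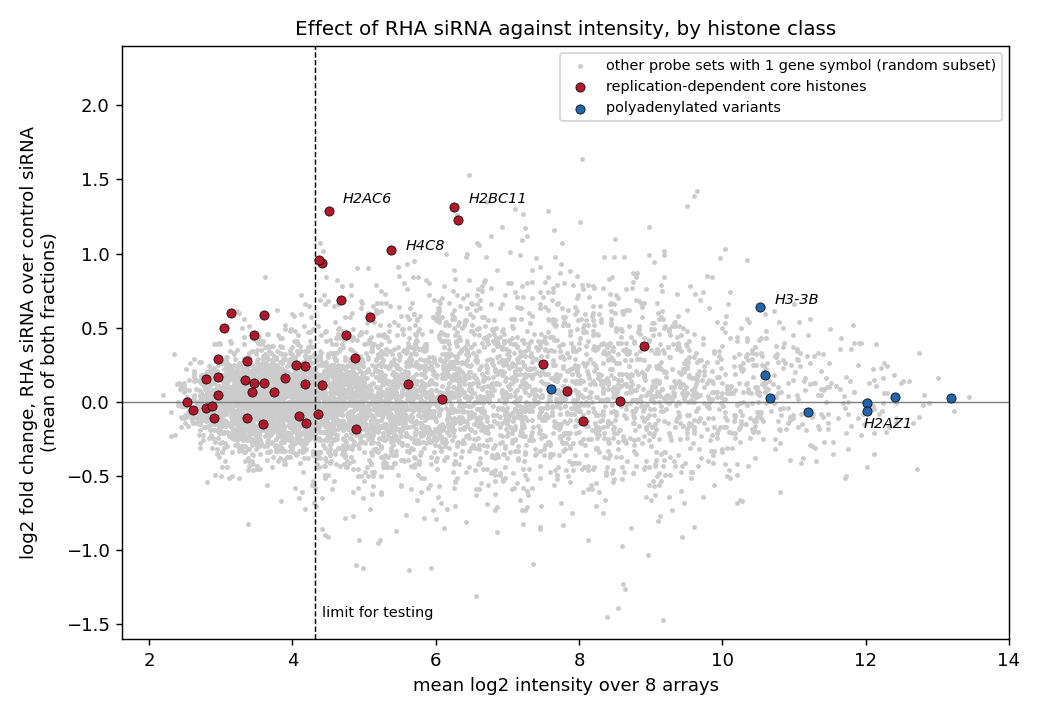
Log2 fold change under RHA siRNA (mean of both fractions) against mean log2 intensity, for the 47 replication-dependent probe sets in red, the 9 variants in blue and a random 6000 of the other probe sets with 1 symbol in grey. The red points with a log2 fold change of 0.69 or more lie between the limit of 4.32 and a log2 intensity of 6.31, and the variants, except 1 probe set of H3-3B at 0.64, lie between -0.07 and 0.18.

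In the H4 family, whose protein pairs with H3 in the nucleosome, the difference was largest for H4C8. This gene (probe set MmugDNA.41096.1.S1_at), had intensities of 45.0 and 58.6 in polysomal RNA after RHA siRNA (sets 1 and 2), against 25.9 and 26.4 after control siRNA. In cytoplasmic RNA it had 58.0 and 82.1 after RHA siRNA, against 32.4 and 32.8 after control siRNA. The 4 control values of H4C8 lay close together and every RHA siRNA value lay above them. H4C8 was 2.04-fold of control over both fractions (log2 1.03, SE 0.24; adjusted p in limma 1.00, or 0.132 with the set as a term), with 0.82 in set 1 and 1.24 in set 2. Its group means were 5.68 ± 0.27 and 4.71 ± 0.02 in polysomes, and 6.11 ± 0.35 and 5.03 ± 0.01 in cytoplasm (log2 intensity, SD, n = 2, RHA siRNA first).

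Other H4 genes differed less. The brighter probe set of H4C11 (MmugDNA.3247.1.S1_at) had 878 and 244 in polysomes after RHA siRNA against 522 and 254 after control siRNA, and 473 and 212 in cytoplasm against 865 and 182. Its values separated by set and overlapped between the siRNAs, for a log2 fold change of 0.01 (SE 0.68), and its second probe set had 0.07. H4C2, H4C5, H4C6 and H4C13 were read by dim probe sets alone, with log2 fold changes of -0.11 to 0.25, and of these H4C13 was higher in all 4 comparisons. Over the 8 probe sets of the family 6 lay above 0, where 52.9% of all probe sets did, and the median was 0.07.

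Among the H2B genes, which encode the partner of H2A in the nucleosome, H2BC11 had the highest fold. Its brighter probe set (MmunewRS.203.1.S1_at) had 65.0 and 192 in polysomes after RHA siRNA, against 49.2 and 48.6 after control siRNA. In cytoplasm the values were 83.0 and 209 after RHA siRNA, against 61.3 and 49.7 after control siRNA. The controls of H2BC11 were alike in both sets, while the siRNA difference was far larger in set 2 (log2 2.03) than in set 1 (0.42). H2BC11 was 2.34-fold of control over both fractions (log2 1.22, SE 0.46; adjusted p in limma 1.00, or 0.214 with the set as a term). A second probe set of the same target, with the suffix for shared probes, had a log2 fold change of 1.32 (SE 0.38; 0.70 and 1.93 in sets 1 and 2).

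H2BC8 (MmugDNA.23860.1.S1_at) had 29.0 and 41.7 in polysomes after RHA siRNA against 21.7 and 24.7 after control siRNA, and 34.3 and 26.8 in cytoplasm against 16.0 and 19.4. All of its RHA siRNA values exceeded all of its control values, with a log2 fold change of 0.69 (SE 0.24, within sets 0.76 and 0.61; adjusted p 1.00 in limma without and 0.229 with the set as a term). H2BC7, read by a probe set for shared sequence, had a log2 fold change of 0.45 (SE 0.21) and likewise no overlap. H2BC26, the remaining H2B gene in the tested range, had -0.08 and lay near the limit on every array (14.8 to 29.3). Of 17 H2B probe sets 14 lay above 0 and 6 were higher in all 4 comparisons, against 52.9% and 8.05% of all probe sets. The median log2 fold change was 0.24, and the dim H2BC4 and H2BC9 were the other genes with a probe set higher in all 4.

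**Figure D2:**
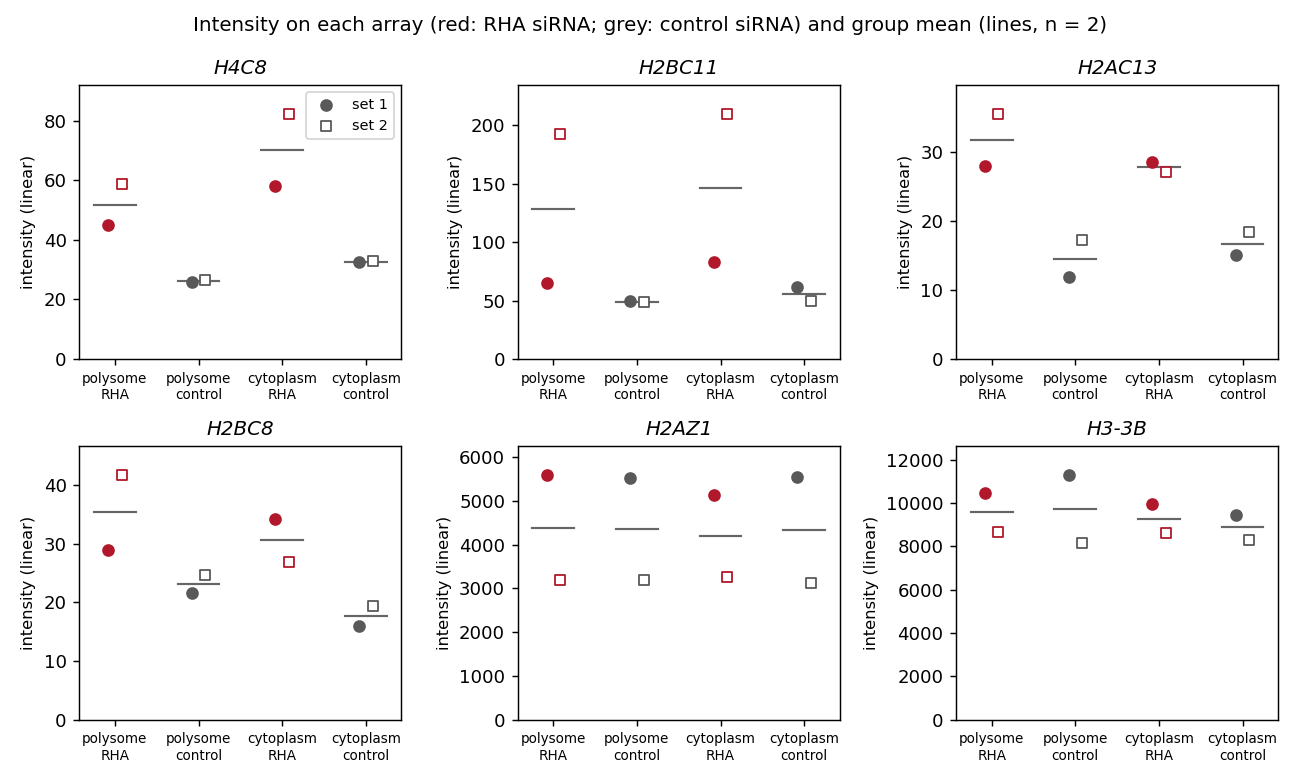
Intensity on each of the 8 arrays, on a linear scale from 0, for H4C8, H2BC11 (brighter probe set), H2AC13, H2BC8, H2AZ1 and H3-3B (brightest probe set of each), with set 1 as circles, set 2 as squares and the mean of the 2 arrays as a line. RHA siRNA arrays (red) lie above control arrays (grey) in each of the first 4 panels, while H2AZ1 and H3-3B are ordered by set and not by siRNA.

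Genes of H2A, the family with most probe sets, were split. H2AC13 (MmugDNA.26358.1.S1_at) had 28.0 and 35.5 in polysomes after RHA siRNA against 11.9 and 17.3 after control siRNA, and 28.5 and 27.1 in cytoplasm against 15.1 and 18.4. H2AC8 (MmugDNA.40371.1.S1_at) had 19.9 and 50.1 in polysomes after RHA siRNA against 14.6 and 18.7 after control siRNA, and 19.3 and 35.5 in cytoplasm against 13.1 and 13.5. Both genes were higher on every RHA siRNA array than on any control array, with log2 fold changes of 0.94 (SE 0.24) and 0.96 (SE 0.38) over both fractions. Their control values all lay under the limit of 19.9, and no detection calls were used, so the folds of these genes are uncertain.

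H2AC6 was read by 3 probe sets that disagreed. The brightest of them (MmuSTS.8.1.S1_at) had 657 and 374 in polysomes after RHA siRNA against 703 and 348 after control siRNA, and 956 and 383 in cytoplasm against 527 and 244. Here cytoplasmic H2AC6 was higher after RHA siRNA in both sets and polysomal H2AC6 was lower in set 1 and higher in set 2, for a log2 fold change of 0.38 (SE 0.47) over both fractions. A weaker probe set with shared probes (MmugDNA.29213.1.S1_s_at) had 27.4 and 56.5 in polysomes after RHA siRNA against 16.5 and 13.6 after control siRNA, and 30.0 and 34.1 in cytoplasm against 10.7 and 18.4. It was higher on every RHA siRNA array than on any control array, with a log2 fold change of 1.29 (SE 0.33). Its control values too all lay under the limit of 19.9, so this fold is uncertain, and the last probe set (MmugDNA.30974.1.S1_at) had -0.18. The shared probe set belongs to the same design number as the probe set of H2AC7, which had 0.11, so its signal cannot be assigned to H2AC6 alone.

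H2AC25 went opposite ways in the sets. Its brighter probe set (MmugDNA.33563.1.S1_at) had 393 and 187 in polysomes after RHA siRNA against 189.5 and 289.5 after control siRNA, and 349 and 162 in cytoplasm against 338 and 321. The difference averaged log2 0.55 in set 1 and -0.81 in set 2, and the second probe set gave 0.65 and -0.60. Of the other H2A genes in the tested range, H2AC17 had a log2 fold change of 0.30, H2AC20 0.26 and H2AC12 0.12. H2AC20 differed by log2 2.92 between set 2 and set 1 with the siRNAs averaged, far more than between the siRNAs. Of 20 H2A probe sets 14 lay above 0 and 4 were higher in all 4 comparisons, against 52.9% and 8.05% of all probe sets. The median log2 fold change of the H2A probe sets was 0.13.

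The H3 genes were represented by 2 probe sets only. H3C2 (MmuSTS.4309.1.S1_at) had 66.0 and 22.5 in polysomes after RHA siRNA against 29.3 and 25.6 after control siRNA, and 58.3 and 32.9 in cytoplasm against 26.8 and 29.2. The excess of H3C2 lay in set 1 (log2 1.15), with -0.01 in set 2. H3C1, which was dim, had 0.28 and was higher in all 4 comparisons. The genes with dim probe sets alone were H2AC1, H2AC4, H2AC15, H2AC16, H2AC21, H2BC1, H2BC4, H2BC6, H2BC9, H2BC10, H2BC13, H2BC14, H2BC17, H3C1, H4C2, H4C5, H4C6 and H4C13. The 27 dim probe sets, which include some of brighter genes, had log2 fold changes of -0.15 to 0.60 with a median of 0.13, against 0.00 for all dim probe sets.

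**Figure D3:**
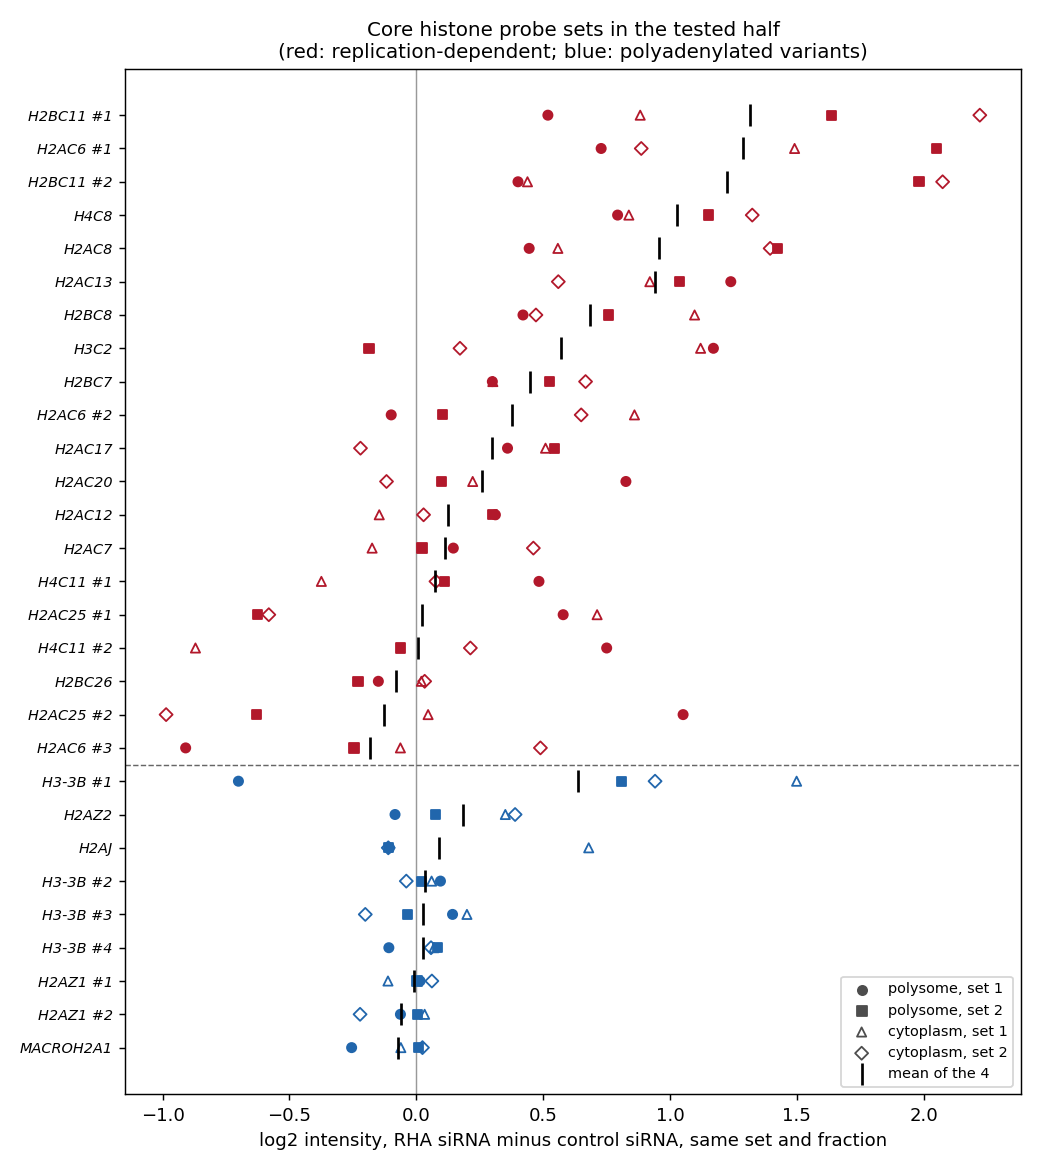
Log2 difference between RHA siRNA and control siRNA within each set and fraction for the 29 core histone probe sets in the tested range, with polysomes as filled and cytoplasm as open symbols, set 1 as circles and triangles, set 2 as squares and diamonds, and the mean of the 4 as a bar. Probe sets of a gene are numbered by their mean, from the highest. All 4 symbols lie right of 0 in 8 of the 20 replication-dependent probe sets and in 0 of the 9 variant ones, against 9.81% of all tested probe sets. Of those 8, H2AC13, H2AC8 and the shared probe set of H2AC6 entered the range through their RHA siRNA arrays.

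Most variant mRNAs differed little with RHA siRNA. H2AZ1 encodes H2A.Z, a variant placed at promoters, and its probe set MmuSTS.54.1.S1_at had 5592 and 3188.5 in polysomes after RHA siRNA against 5533 and 3183 after control siRNA. In cytoplasm it had 5130 and 3252 after RHA siRNA, against 5541 and 3116 after control siRNA. Within a set the 4 values of H2AZ1 were nearly level, and set 1 lay above set 2, for a log2 fold change of -0.01 (SE 0.37, or 0.16 with the set as a term). H2AZ2, the paralogue of H2AZ1, had 2184 and 1169 in polysomes after RHA siRNA against 2315 and 1109 after control siRNA, and 2602 and 1128 in cytoplasm against 2040 and 861. Its cytoplasmic values were higher after RHA siRNA in both sets, and its polysomal values lower in set 1 and higher in set 2, for a log2 fold change of 0.18 (SE 0.48; 0.13 and 0.23 in sets 1 and 2) and a loading change of -0.37. MACROH2A1, a variant with a large extra domain that is enriched on the inactive X chromosome, had 1824 and 2883 in polysomes after RHA siRNA against 2175 and 2865 after control siRNA, and 1849 and 2872 in cytoplasm against 1928 and 2824. It was slightly lower in set 1 and level in set 2, for a log2 fold change of -0.07 (SE 0.30).

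H3-3B is 1 of the genes of the replacement histone H3.3 and was read by 4 probe sets. The brightest (MmugDNA.32105.1.S1_at) had 10481 and 8654 in polysomes after RHA siRNA against 11295 and 8172 after control siRNA, and 9945 and 8627 in cytoplasm against 9473 and 8285. It and 2 others gave log2 fold changes of 0.03 each. The last, MmugDNA.42919.1.S1_at, gave 0.64 (SE 0.69) from 2464 and 1148 in polysomes after RHA siRNA against 4005 and 655 after control siRNA, and 3379 and 1190 in cytoplasm against 1195 and 620. It thus went opposite ways in the fractions of set 1 and was higher after RHA siRNA in both fractions of set 2. The 3' over 5' signal of the actin, EF1A and GAPDH control probe sets, a sign of RNA integrity, moved with RHA siRNA by log2 1.19 in polysomes and -1.10 in cytoplasm of set 1, and by -0.33 and -0.26 in set 2. Its part in the result for this probe set, or in those of the replication-dependent class, was not tested.

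H2AJ, a variant known to accumulate in senescent human cells, had 543 and 75.2 in polysomes after RHA siRNA against 585 and 81.1 after control siRNA, and 642 and 63.7 in cytoplasm against 401 and 68.7. The siRNA difference of H2AJ was 0.09 (SE 1.16, or 0.19 with the set as a term). Set 2 was lower than set 1 by more than any siRNA difference, at log2 -2.90. The variants as a class had a median difference between set 2 and set 1 of log2 -0.63, against 0.05 for the replication-dependent class and -0.02 for all probe sets with 1 symbol.

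By fraction, the median of the replication-dependent class lay above 0 in both. In polysomal RNA the median log2 fold change was 0.27 (0.30 and 0.15 within sets 1 and 2). It was -0.0036 for the variants and 0.01 for all probe sets with 1 symbol. In polysomes 38 of 47 lay above 0, where 27991 of all 52766 probe sets did. In cytoplasmic RNA the class median was 0.18 (0.22 and 0.10), against 0.01 for the variants and 0.03 for probe sets with 1 symbol. There 32 of 47 lay above 0, where 26858 of all 52766 probe sets did. With the set as a term, the cytoplasmic median was 0.018 without the cytoplasmic RHA siRNA array of set 1, and the polysomal one 0.13 without the polysomal control array of set 1. The H4 family had a median of -0.10 in cytoplasm, with 3 of 8 above 0, against 0.27 and 8 of 8 in polysomes. Its cytoplasmic median was -0.21 in set 1 and 0.05 in set 2, and its polysomal one 0.28 and 0.13. Of these 8 H4 probe sets 5 were dim. Higher in both sets were 26 of 47 in polysomes, where 28.6% of all probe sets were, and 20 of 47 in cytoplasm, where 23.7% were. Of the variants 2 of 9 in polysomes and 3 of 9 in cytoplasm were higher in both sets.

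Polysome loading is what the series title asks about, and its change was taken as the siRNA effect in polysomes minus that in cytoplasm. The class medians lay close together and varied between the sets. The median loading change was 0.08 for the replication-dependent class and -0.08 for the variants, against -0.01 for all probe sets with 1 symbol, and -0.04 and 0.03 for the replication-dependent class within sets 1 and 2. Of the 47, 14 were higher in loading in both sets, where 28.3% of all probe sets were, and 12 were lower in both, where 21.3% were. For the genes with the largest siRNA difference the loading change was -0.11 for H4C8, -0.07 for H2BC11 (-0.47 by its second probe set), -0.04 for H2AC8 and 0.40 for H2AC13. The brightest probe set of H2AC6 had -0.75 (-0.96 and -0.55 in sets 1 and 2), from a polysomal over cytoplasmic ratio of log2 -0.29 under RHA siRNA and 0.47 under control siRNA. A second H2AC6 probe set had -0.79 and the shared one 0.20. Among variants the lowest was the divergent H3-3B probe set, at -1.17, of which -2.20 came from set 1 and -0.13 from set 2. In limma 0 of these passed, with an adjusted p of 0.967 with the set as a term for both H2AC6 probe sets and for that of H3-3B.

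**Figure D4:**
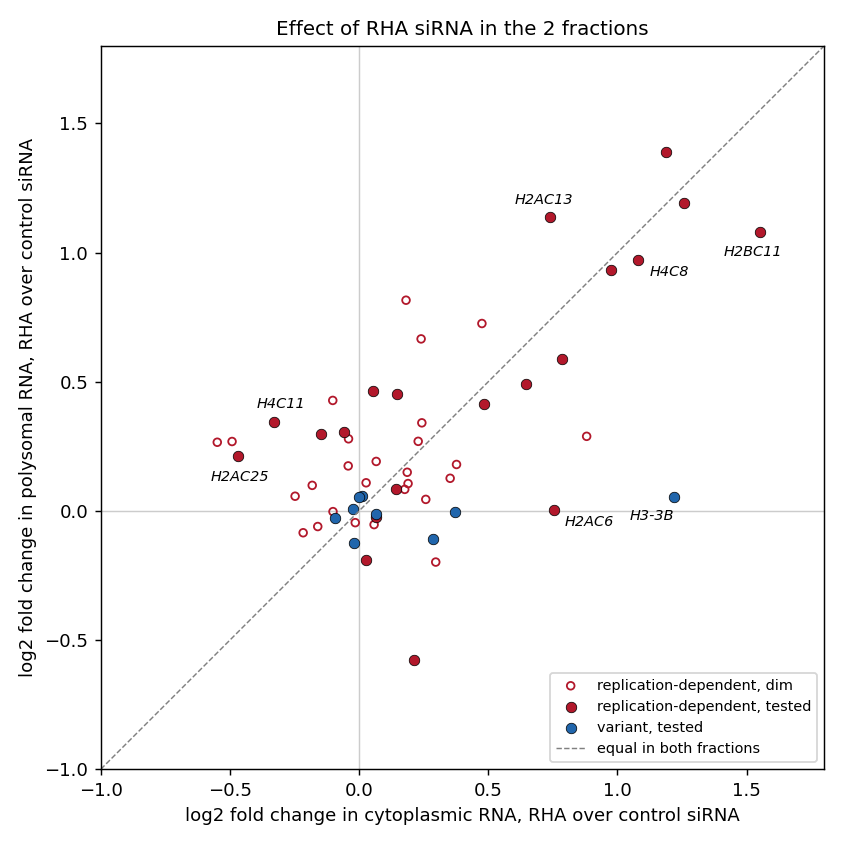
Log2 fold change under RHA siRNA in polysomal RNA (y) against cytoplasmic RNA (x) for the 56 core histone probe sets, replication-dependent in red (open where dim) and variants in blue, with a dashed line where both are equal. H4C8, H2BC11 and H2AC13 lie in the upper right near the line, while H2AC6 (brightest probe set) and 1 probe set of H3-3B lie right of it at a polysomal value near 0.

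At baseline, under control siRNA, the polysomal over cytoplasmic ratio was compared between the classes. All 9 variant probe sets, from 5 genes, had a log2 ratio above 0 (median 0.12, with 0.17 and 0.08 within sets 1 and 2). In the tested range 59.8% of probe sets did. Of the 9, 6 were above 0 in both sets, against 30.5% of that range. Of the replication-dependent probe sets 19 of 47 lay above 0 (median -0.06, with -0.11 and -0.05 within sets), against 47.7% of all probe sets. Below 0 in both sets were 18, against 28.6% of all probe sets. Of these 18, 12 were dim, and 9729 of 26383 dim probe sets were below 0 in both sets. Probe sets with 1 symbol had medians of 0.10 in the tested range and -0.07 below it. The 20 tested replication-dependent probe sets had a median of -0.05 and the 27 dim ones of -0.06. Under RHA siRNA the medians were 0.05 for the replication-dependent class and 0.04 for the variants. H4C8 was lower in polysomes than in cytoplasm in both sets under either siRNA, with log2 ratios of -0.43 under RHA siRNA and -0.32 under control siRNA, neither of which passed in limma.

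Genes that process, carry or accompany histones were counted from lists taken with the members, by the brightest probe set of each gene. Among all tested probe sets with 1 symbol, 56.5% lay above 0 and the median was 0.04. There 10.3% were higher in all 4 comparisons, and 1395 of 16072 were lower in all 4. The counts of the lists are to be read against these shares. Of 16 measured genes of histone mRNA 3' end processing 12 lay above 0 over both fractions (median log2 0.09), and 2, CSTF2 and NCBP3, were higher in all 4 comparisons. SLBP itself had -0.12 (-0.20 and -0.04 in sets 1 and 2), and NPAT, the coactivator of histone gene transcription, had 0.05. SNRPD3, a core protein of spliceosomal and U7 snRNPs, had 0.61 (SE 0.40), SNRPE -0.36 and CASP8AP2, a protein of histone locus bodies, -0.23. Of 16 genes of histone mRNA translation and decay 9 lay above 0 (median 0.05), with EXOSC10 higher and TUT4 lower in all 4 comparisons. ERI1, the exonuclease that trims the stem-loop end, had 0.24, LSM3 0.46, LSM2 0.31 and the cap-binding protein EIF4E -0.44.

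Histone chaperones and depositors had a median of -0.06, with 10 of 24 above 0, 3 higher in all 4 comparisons (VPS72, EP400 and DNAJC9) and 4 lower in all 4 (RBBP7, ANP32E, CHAF1A and CABIN1). VPS72, a subunit of complexes that deposit H2A.Z, had 0.75 (SE 0.29), EP400 0.43, DNAJC9 0.38 and the importin IPO4 -0.39. S phase genes had a median of 0.04, with 11 of 20 above 0, 2 higher in all 4 comparisons (POLA1 and CDC25A) and 1 lower (RRM1). CCNE1, which encodes cyclin E1, had 0.44 (0.44 and 0.45 in sets 1 and 2). MCM4 had 0.37, from -1.19 in polysomes and 2.23 in cytoplasm of set 1 and 0.24 and 0.21 in set 2. CDK2 had 0.33 (0.64 and 0.0095 in sets 1 and 2), POLA1 0.29 (0.53 and 0.05) and PCNA -0.12 (0.01 and -0.25). In these 4 lists 0 genes passed in limma, with or without the set as a term.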

How the data were processed

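RNA from COS cells was measured on 8 Affymetrix rhesus arrays. The authors deposited a linear intensity for each probe set. GCOS and RMA appear in the submitters' processing notes without version or role, and array medians were close, so the values were taken as normalised by the authors. Other steps are not given in the sources used here. Of 52865 probe sets, 99 were controls. Genes came from the platform annotation, in which 24969 probe sets carry 1 symbol, 361 several and 27535 none.

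After a log2 transform, the 26383 of 52766 probe sets with the highest mean over all arrays were tested with limma 3.58.1 in R 4.3.3 (lmFit, eBayes, two-sided, 4 groups, 6 contrasts, Benjamini-Hochberg over all tested probe sets, threshold 0.05). SE and adjusted p are from that fit unless the set is named as a term. Class medians and counts cover all members, dim ones included, without a test. Alternatives were the replicate number as a block, other filters, quantile normalization, a trended prior, other choices of member probe sets and leaving out arrays. The fits were tested on simulated data. Core histone genes in the tested range were named with their brightest probe set. Values on all arrays are given for the 4 genes per class with the largest moderated t and those with the largest loading change. They are also given for members found past a threshold in a fit over both fractions. Others (H2AC8, H2AC25, H2AZ1, H3C2, H4C11 and the divergent H3-3B probe set) were chosen after their values were seen. Of each accompanying list up to 4 genes with the largest t were named, and SLBP, NPAT and PCNA besides. Genes of these lists that were higher or lower in all 4 comparisons were named too, picked by their values. Members and lists were chosen with earlier results of these data known. The labels do not say that replicates were separate cultures, so p-values measure the spread between these arrays, and their number limits the precision. With only 2 replicate numbers, no pairing was assumed in the fit without the set as a term. The within-set comparisons, the counts from them and the fit with the block do match arrays by replicate number. The deviations of same-numbered arrays from their group means correlated at 0.65 to 0.81 across probe sets, so within-set values are given.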

Additional observations from a re-analysis of the deposited data

Results flagged for a closer look

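In 4 of 56 core histone probe sets (7.14%) the siRNA difference had 1 sign in polysomes of both sets and the opposite sign in cytoplasm of both, against 10.5% of all probe sets. The loading change was log2 0.76 for a probe set of H4C6 (MmugDNA.41092.1.S1_at), with 0.27 in polysomes and -0.49 in cytoplasm, and 0.81 for H2BC6 (0.27 and -0.55). It was -0.49 for a probe set of H2BC13 (-0.20 and 0.30). These 3 were under the limit for testing, and their differences were not tested. For H2BC26 the loading change of -0.22 was tested and did not pass (adjusted p in limma 1.00, or 0.971 with the set as a term).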

How the results depend on the processing

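With the replicate block (the set as a term) limma called 2 probe sets over both fractions, neither a member, and the other 5 contrasts stayed at 0. No core histone passed with all 8 arrays under any other filter, prior or normalization tried. Once the set 2 cytoplasmic control array was left out, the fit with the block called 954 probe sets over both fractions, 1150 in cytoplasm and 748 between polysomes and cytoplasm under control siRNA, against 0 in the fits without the block. That was the only fit in which members passed: H2AC6 (shared probe set, adjusted p in limma 0.0244), H4C8 (0.0356) and H2AC13 (0.0390). Of these, H2AC6 and H2AC13 lay under the limit of 4.32 in both control groups and entered the test through their RHA siRNA arrays. Leaving out the cytoplasmic control array of set 1 instead gave 33 calls over both fractions. H4C8 stayed between log2 0.90 and 1.15 with each array left out in turn, and H2BC11 between 0.83 and 1.61. With each array left out in turn, with and without the block, low differences changed sign: H2AZ2 ranged from -0.13 to 0.49, H2AC7 from -0.48 to 0.70, H3-3B from -0.091 to 0.14, H4C11 from -0.55 to 0.57, H2AC25 from -0.47 to 0.21, H2AC20 from -0.55 to 1.06, H2AJ from -0.74 to 0.92, H2AZ1 from -0.22 to 0.20, H2BC26 from -0.32 to 0.16 and MACROH2A1 from -0.24 to 0.095. With the block alone sign changes remained for H4C11 (-0.22 to 0.23), H2AZ1, H2AC25, H3-3B, H2AJ and H2AC7. Quantile normalization gave H4C11 -0.036.

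The class medians (log2) over these fits ranged as follows. Over both fractions they were 0.11 to 0.19 for the replication-dependent class, -0.10 to 0.18 for the variants and -0.044 to 0.28 for the difference of the classes (0.064 to 0.17 with the block). In cytoplasm they were 0.018 to 0.25, -0.26 to 0.29 and -0.036 to 0.40, and in polysomes 0.13 to 0.31, -0.36 to 0.34 and -0.16 to 0.63. For loading they were -0.040 to 0.13, -0.31 to 0.31 and -0.24 to 0.36, and for the ratio under control siRNA -0.088 to -0.0069, -0.25 to 0.40 and -0.46 to 0.21. With the tested range alone the replication-dependent median was 0.34 over both fractions, 0.35 in cytoplasm, 0.43 in polysomes and -0.062 for loading. The class difference there was 0.31 over both fractions, 0.34 in cytoplasm and 0.014 for loading. H2AC13, H2AC8 and the shared probe set of H2AC6 entered that range through their RHA siRNA arrays. The filter itself thus favours higher siRNA differences, and these medians are no separate support. With the brightest 25% of probe sets the replication-dependent median was 0.059 in cytoplasm, 0.17 for loading and -0.15 for the ratio under control siRNA, and the class difference was 0.14 over both fractions, 0.049 in cytoplasm and 0.25 for loading. With the brightest probe set per gene the class difference was 0.14 over both fractions and 0.081 in cytoplasm, the variant median in cytoplasm 0.064 and the replication-dependent ratio under control siRNA -0.11. Without shared-probe suffixes the class difference was 0.10 over both fractions and 0.11 in cytoplasm. Quantile normalization gave a variant median of -0.029 in cytoplasm and a class difference of 0.062 for loading. Within set 1 the replication-dependent median was 0.22 over both fractions, -0.037 for loading and -0.11 for the ratio under control siRNA, the variant median 0.078, 0.070 in cytoplasm and -0.083 in polysomes, and the class difference 0.14 over both fractions. Within set 2 the class difference was 0.15 over both fractions, 0.080 in cytoplasm and 0.033 for loading, and the replication-dependent median in polysomes 0.15. The cause of these shifts was not tested. The count without the cytoplasmic control array of set 1, given with the counts above, was chosen after seeing the data.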
